A study of Rattus norvegicus with 11 samples.

Results

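The 10 genes followed here are in common use as qPCR references and were measured over 11 arrays of rat trigeminal ganglion (TRG). They are Actb, Gapdh, Ppia, Hprt1, Tbp, B2m, Ywhaz, Gusb, Sdha and Pgk1. Their probes were found by the RefSeq accession of each spot. This gave 16 of the 24684 probes of the array, 2 for each of 6 genes and 1 for each of Gapdh, Ppia, Tbp and Ywhaz, and all 10 genes were found, among 13903 named genes in all. The genes were picked by name, with earlier results of these data known. The study asked how gene expression in the TRG differs between the sides of the face during orofacial inflammation. All samples came from male Wistar rats that had received complete Freund's adjuvant (CFA, killed mycobacteria in paraffin oil, 50 μl at 1 mg/ml) under the skin of the whisker pad on 1 side, and both ganglia were excised after 7 days. The CFA group held 6 ganglia of the injected side (rats 1, 2, 3, 5, 6 and 8), and the contralateral group held 5 ganglia of the other side (rats 1, 2, 3, 5 and 6). Rat numbers were read from the sample titles. The controls were ganglia of inflamed animals, and no uninjected rat was analysed here. The sources used here do not give the age of the rats.

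In qPCR the amount of RNA put into each reaction is never exactly equal, so the level of a gene is expressed relative to transcripts that are taken to be constant. Such reference transcripts are usually drawn from basic cell functions such as the cytoskeleton, glycolysis, respiration or nucleotide salvage, because nearly all cells need them. A reference that differs between the compared groups shifts every gene that is set against it. For its own qPCR the study detected Gapdh, Hprt1, B2m and Ppia. For the TRG it combined B2m and Hprt1, as the geometric mean of their quantification cycles. That qPCR used rats of a separate experiment and not the ganglia measured on these arrays.

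Every sample had its own single-colour array, whose median processed signal lay between 74.6 and 117. Between 68.9% and 82.8% of the spots were well above background, and 0 spots were saturated. All 13 measured markers of sensory neurons and 9 of 10 markers of satellite glia and Schwann cells were well above background on every array. Markers of anterior pituitary varied most, with a summed log2 signal of 11.48 to 18.23. The arrays lay on 5 slides. Slide 1 held the contralateral array of rat 3, slide 3 those of rats 1 and 2, slide 4 the CFA arrays of rats 2 and 3, and slide 5 those of rats 5, 6 and 8. Both groups met on slide 2 alone, where CFA rat 1 lay beside contralateral rats 5 and 6, so outside slide 2 slide and group cannot be told apart. Differences within slide 2 subtract the mean of these contralateral values from the CFA value. Scan day 1 held all contralateral arrays and CFA rat 1, and scan days 2 and 3 held CFA arrays alone. Fits with slide or scan day as a block thus rest on the CFA array of rat 1 as well.

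All 16 probes of the reference genes were well above background on all 11 arrays. In the quantile-normalised log2 signal 6 of the 10 genes had a higher and 4 a lower mean on the CFA side. The median log2 difference of the 10 genes was 0.06, against -0.04 for all probes, and the median absolute difference was 0.12 against 0.17. None of the 10 reached the study's threshold (an unadjusted p of 0.05 or less from limma with a fold change over 2), which 2.02% of all probes did (1.15% as higher and 0.863% as lower on the CFA side). With slide as a block 1 of the 10, Ywhaz, reached it as lower. At an unadjusted p of 0.05 alone 1 gene was called, Ppia, which was lower on the CFA side, against 10.8% of all probes (4.02% as higher and 6.75% as lower). At an adjusted p of 0.05 (Benjamini-Hochberg over all probes) 0 genes were called, as 0% of all probes were. Ppia was also the 1 gene whose groups did not overlap, which held for 1.2% of all probes (0.531% as higher and 0.664% as lower). Throughout, a gene with 2 probes is given by the brighter one.

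**Figure D1:**
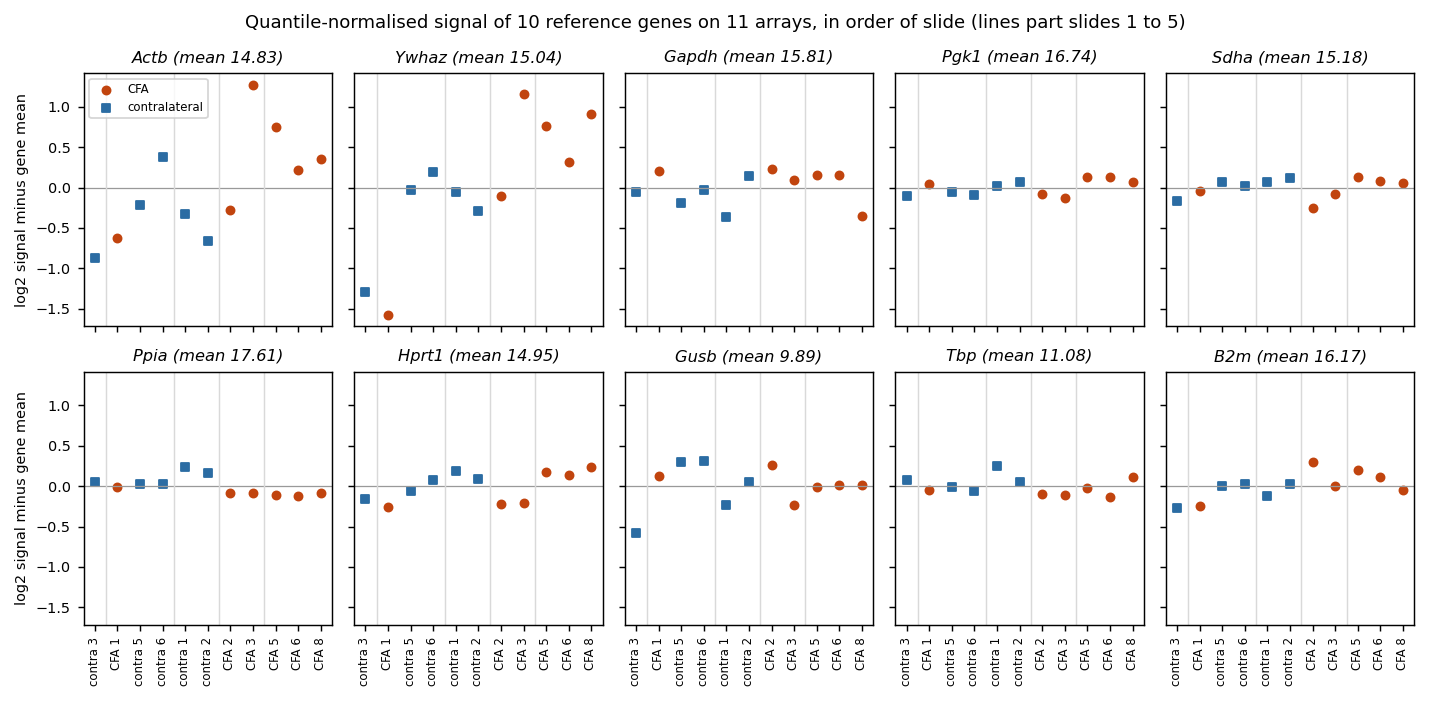
Quantile-normalised log2 signal of each reference gene minus its mean over the 11 arrays (y axis), for each array in order of slide (x axis; circles CFA, squares contralateral, numbers are rats, vertical lines part slides 1 to 5). Actb (13.96 to 16.10) and Ywhaz (13.47 to 16.21) spread widely, with the CFA array of rat 3 highest for both, while the other 8 genes stay close to their means.

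Actb and Ywhaz varied far more between arrays than the other 8 genes. Actb encodes beta-actin, a subunit of the actin filaments of the cytoskeleton. On the contralateral arrays its log2 signal was 14.50, 14.17, 13.96, 14.62 and 15.21 (rats 1, 2, 3, 5 and 6). On the CFA arrays the lowest value was 14.20 (rat 1), the median 15.11 and the highest 16.10 (rat 3). The groups overlapped, since 4 of the 6 CFA arrays (rats 1, 2, 6 and 8) lay within the contralateral range and those of rats 3 and 5 above it. The mean was 15.11 ± 0.69 (SD, n = 6) on the CFA side and 14.49 ± 0.48 (SD, n = 5) on the contralateral side. The difference was 0.62 (standard error 0.34, 95% confidence interval -0.13 to 1.36, adjusted p = 0.505 from limma). The exact permutation test gave p = 0.130 (two-sided, as all permutation tests here). Actb was higher on the CFA side in 3 of the 5 rats with both sides. Within slide 2 its difference was -0.72, and so it was with slide as a block. Without the CFA array of rat 1 the difference was 0.80 (adjusted p = 0.274 from limma), and without the contralateral array of rat 6 it was also 0.80 (adjusted p = 0.317), in both cases past an unadjusted p of 0.05.

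Ywhaz encodes 14-3-3 zeta, an adaptor that binds phosphorylated proteins. Its log2 signal on the contralateral arrays was 14.99, 14.75, 13.75, 15.01 and 15.24 (rats 1, 2, 3, 5 and 6). On the CFA arrays it was lowest at 13.47 (rat 1), with a median of 15.59 and a highest value of 16.21 (rat 3). As for Actb, the contralateral array of rat 3 and the CFA array of rat 1 were the lowest of their groups, and the groups overlapped. Group means were 15.29 ± 1.00 (SD, n = 6) and 14.75 ± 0.58 (SD, n = 5), which gave a difference of 0.54 (standard error 0.47, 95% confidence interval -0.49 to 1.57, adjusted p = 0.648 from limma). The exact permutation test gave p = 0.331. Without the CFA array of rat 1 the difference was 0.91 (adjusted p = 0.242 from limma), while with slide as a block it was -1.65 (adjusted p = 0.513), both past an unadjusted p of 0.05 and the latter past the study's threshold. A block for the scan day gave -1.28. The direction of Actb and Ywhaz thus turned in fits that rest on CFA rat 1, the only CFA array on slide 2. This array was the lowest of its group for both genes, so slide and animal cannot be told apart here.

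Over the 11 arrays the SD of Ywhaz was 0.85 on the log2 scale, a 6.66-fold range, and that of Actb 0.66, a 4.42-fold range. The SD of Ywhaz exceeded that of 91.6% and the SD of Actb that of 84.6% of all probes. The other 8 genes had SDs from 0.10 (Pgk1) to 0.27 (Gusb), below the median SD of all probes (0.32). In the unnormalised signal 7 of the 10 lay below the median of all probes (0.43), with SDs from 0.15 (Ppia) to 0.46 (Hprt1) for these 8, and with normexp 4 and without background correction 5 of the 10 lay below it. For the 8228 brightest probes the median SD was 0.16, and 4 of the 10 genes lay below it. In the unnormalised signal the SD was 0.95 for Ywhaz and 0.71 for Actb, and it was 0.84 and 0.66 in the values that the authors had normalised. Summed marker signals were set against Actb after the values had been seen. Of the marker lists, skeletal muscle (8 of 8 measured, 8 well above background on every array) had the largest r in size. Its sum ran against Actb, with r = -0.75 over the 11 arrays, followed by r = 0.48 for red blood cells and -0.34 for macrophages. The muscle sum was lowest in CFA rat 3 (13.06) and highest in contralateral rat 3 (13.55). This sum was carried by the probe of Acta1 (mean log2 signal 13.24 on the CFA and 13.36 on the contralateral side), since the other 7 probes had means of 4.06 to 7.71, and of these Mb (0.56) and Ckm (0.14) were higher on the CFA side. The part of muscle tissue in the spread of Actb was not tested. For sensory neurons the sum lay between 20.51 and 20.59 on all arrays.

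**Figure D2:**
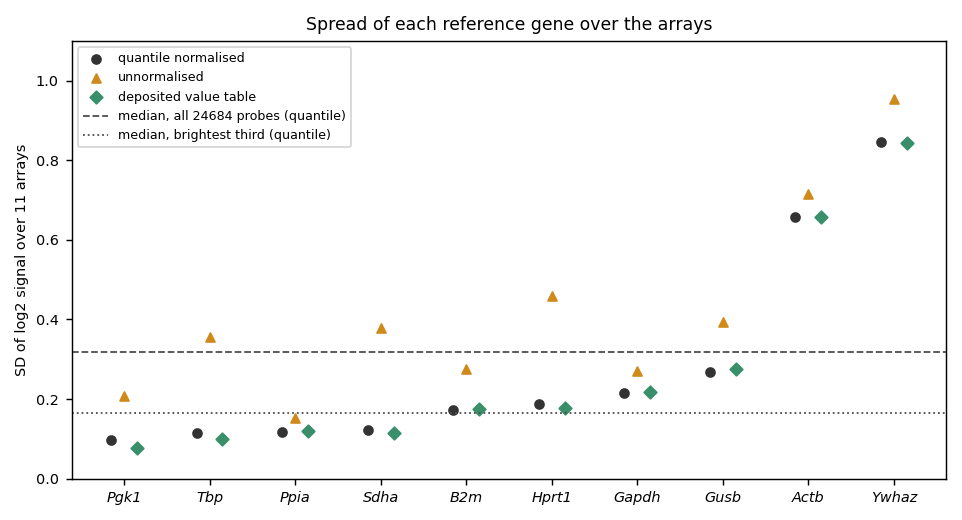
SD of the log2 signal over the 11 arrays (y axis) for each reference gene (x axis), in the quantile-normalised signal (circles), the unnormalised signal (triangles) and the authors' value table (diamonds). The dashed and dotted lines are the medians of all 24684 probes (0.32) and of the brightest 8228 (0.16) after quantile normalisation, and only Actb and Ywhaz lie above the dashed line with their quantile-normalised values.

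Relatives of Actb and Ywhaz varied to different degrees. Of the 14-3-3 family, 5 of 6 genes other than Ywhaz were measured, with SDs from 0.04 to 0.13, and none passed an unadjusted p of 0.05. The values nearest to it were those of Ywhah (log2 difference 0.12, adjusted p = 0.514 from limma) and Ywhae (0.10, adjusted p = 0.602). Among 4 of 5 other actin genes, Actg1, the other cytoplasmic actin, had an SD of 0.17 and a log2 difference of -0.18 (adjusted p = 0.531 from limma). The muscle actin Acta1 had an SD of 0.12 and Actg2, an actin of smooth muscle, one of 1.38.

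Gapdh and Pgk1 are enzymes of glycolysis that act in successive steps, and Sdha is the catalytic subunit of succinate dehydrogenase in the mitochondrial respiratory chain. The Gapdh signal was 15.45, 15.95, 15.76, 15.63 and 15.78 on the contralateral arrays (rats 1, 2, 3, 5 and 6). On the CFA arrays it went from 15.47 (rat 8) over a median of 15.97 to 16.05 (rat 2). The groups overlapped, but in all 5 rats with both sides the CFA side was higher, by 0.09 to 0.56. In the unnormalised signal it was higher in 3 of 5, with differences from -0.39 to 0.68. The difference was 0.18 (standard error 0.13, 95% confidence interval -0.10 to 0.46, adjusted p = 0.582 from limma), and the exact permutation test gave p = 0.177. Without the CFA array of rat 8, the lowest of its group, it was 0.27 (adjusted p = 0.477 from limma), and with the rat as a replicate block, where rat 8 drops out, also 0.27 (adjusted p = 0.503), both past an unadjusted p of 0.05. Within slide 2 Gapdh differed by 0.31.

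Pgk1 had the smallest SD of the 10 genes after quantile normalisation (0.10), while in the unnormalised signal its SD was 0.21 and that of Ppia 0.15. Its log2 signal lay between 16.63 and 16.81 on the contralateral arrays and between 16.61 and 16.87 on the CFA arrays, a 1.20-fold range in all. The difference was 0.06 (standard error 0.08, 95% confidence interval -0.11 to 0.23), and -0.01 in the unnormalised signal. Sdha had an SD of 0.12, and its difference was -0.04 (standard error 0.09, 95% confidence interval -0.24 to 0.16). Of 12 measured glycolysis genes other than Gapdh and Pgk1 none passed an unadjusted p of 0.05, and their median log2 difference was -0.00. The smallest p belonged to the enolase Eno1 (-0.18, adjusted p = 0.487) and the aldolase Aldoa (-0.15, adjusted p = 0.497), both from limma. The 4 measured partners of Sdha, among them the membrane anchor Sdhc (0.12), had differences from -0.09 to 0.12 and SDs from 0.08 to 0.17.

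Ppia, which encodes cyclophilin A, a peptidyl-prolyl isomerase that assists protein folding, was lower on the CFA side at an unadjusted p. On the contralateral arrays the log2 signal was 17.84, 17.78, 17.66, 17.64 and 17.64 (rats 1, 2, 3, 5 and 6). The CFA arrays went from 17.49 (rat 6) over a median of 17.52 to 17.60 (rat 1). Every CFA array lay below every contralateral array, and the CFA side was lower in 5 of 5 rats. The means were 17.53 ± 0.04 (SD, n = 6) and 17.71 ± 0.09 (SD, n = 5), which is 0.880 of the contralateral level. The log2 difference was -0.19 (standard error 0.07, 95% confidence interval -0.34 to -0.03, adjusted p = 0.427 from limma). The exact permutation test gave p = 0.00216, the smallest that 6 arrays against 5 allow. The difference was -0.04 within slide 2, from 17.60 in CFA rat 1 and 17.64 in each contralateral rat. With the rat as a replicate block it was -0.18 (adjusted p = 0.518 from limma), and without the contralateral array of rat 1 or of rat 2, both on slide 3, it was -0.15 and -0.17. In each of these fits it missed an unadjusted p of 0.05. So it did with slide (-0.04) or scan day (-0.11) as a block, with normexp or no background correction (-0.09 each), and, at a like or larger difference, scaled to the 75th percentile (-0.26), to the pair of B2m and Hprt1 (-0.19) or to the 10 genes (-0.29).

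In the unnormalised signal the difference of Ppia was again -0.19, but the groups overlapped (17.36 to 17.69 on CFA arrays, 17.62 to 17.82 on contralateral arrays). The adjusted p from limma was then 1.00, and the exact permutation test gave p = 0.0498. Over the 11 arrays the unnormalised signal of Ppia ran against the brightness of the array (r = -0.66 with the log2 of its 75th percentile), whereas that of each other gene ran with it (r from 0.61 for Actb to 0.96 for Hprt1). On slide 4 the 75th percentile was 1542 and 1684, on slide 5 it was 2378 to 2597, and unnormalised Ppia was 17.69 on both arrays of slide 4 and 17.36 to 17.43 on slide 5. Among the other cyclophilins, 1 of 6 passed an unadjusted p, in the opposite direction. Ppib, cyclophilin B of the endoplasmic reticulum, had a log2 difference of 0.29 (standard error 0.12, adjusted p = 0.449 from limma).

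Hprt1 salvages hypoxanthine and guanine for purine nucleotides, Gusb is the lysosomal enzyme beta-glucuronidase, and Tbp is the TATA-binding protein of the basal transcription machinery. The log2 signal of Hprt1 was 15.14, 15.04, 14.79, 14.89 and 15.03 on the contralateral arrays (rats 1, 2, 3, 5 and 6), and on the CFA arrays it had a lowest value of 14.69 (rat 1), a median of 14.92 and a highest of 15.20 (rat 8). The groups overlapped over nearly their whole range. On the CFA side slides 2 and 4 were low (14.69 to 14.75) and slide 5 high (15.09 to 15.20). The difference was -0.05 (standard error 0.12, 95% confidence interval -0.32 to 0.22, adjusted p = 0.886 from limma). It was 0.0011 without the CFA array of rat 1, and -0.27 within slide 2.

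Tbp had an SD of 0.12 and a difference of -0.11 (standard error 0.08, 95% confidence interval -0.29 to 0.07, adjusted p = 0.601 from limma). The CFA side was lower in 5 of 5 rats, by 0.01 to 0.30, although the groups overlapped, but in the unnormalised signal in 3 of 5, with differences from -0.83 to 0.44. Of 6 measured TFIID subunits and TBP relatives none passed an unadjusted p of 0.05. Gusb had a difference of 0.06 (standard error 0.17, 95% confidence interval -0.31 to 0.42). Its lowest value was 9.31 on the contralateral array of rat 3, and without that array the difference was -0.08. None of the 8 measured lysosomal hydrolases and none of the 4 genes of purine salvage passed an unadjusted p of 0.05.

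B2m encodes beta-2-microglobulin, the light chain of MHC class I molecules, which present peptides to cytotoxic T cells. Interferons are known to raise its transcription. The signal of B2m was 16.04, 16.20, 15.90, 16.17 and 16.19 on the contralateral arrays (rats 1, 2, 3, 5 and 6). On the CFA arrays it was lowest at 15.92 (rat 1), with a median of 16.23 and a highest value of 16.47 (rat 2). The groups overlapped, and 3 CFA arrays (rats 2, 5 and 6) lay above all contralateral ones. The difference was 0.12 (standard error 0.11, 95% confidence interval -0.12 to 0.36, adjusted p = 0.668 from limma), a 1.09-fold level with an interval from 0.918 to 1.29. B2m was higher on the CFA side in 4 of 5 rats, and in 3 of 5 in the unnormalised signal. Within slide 2 the difference was -0.26, and scaled to the mean of the 10 genes it was -0.02.

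Of 13 measured genes of MHC class I antigen presentation, B2m not counted, none passed an unadjusted p of 0.05, and their median log2 difference was 0.10. The smallest p belonged to Hfe, an MHC class I-like protein of iron uptake (-0.27, adjusted p = 0.531 from limma), and to the class I gene RT1-CE16 (0.39, adjusted p = 0.532). Class I genes are near-identical copies, so a probe may read several of them. Over the 11 arrays the genes whose log2 signal ran most like that of B2m, among 11094 genes well above background on every array, were Tapbpl (r = 0.88), Igtp (r = 0.87) and Enpp5 (r = 0.87). For Hprt1 they were Uqcrc2 (r = 0.95), Ostc (r = 0.94) and Zfp503 (r = 0.93). These correlations describe 11 arrays that share slides, and the highest of many values are large by their choice.

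**Figure D3:**
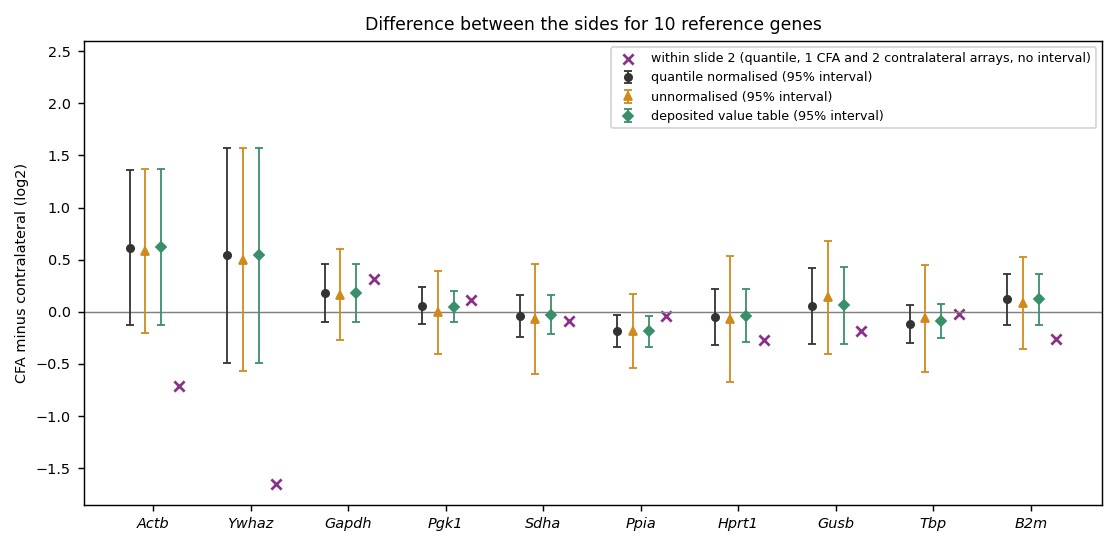
Difference between the CFA and the contralateral side (log2, y axis) of each reference gene (x axis) with its 95% confidence interval from limma, in the quantile-normalised signal (circles), the unnormalised signal (triangles) and the authors' value table (diamonds). Crosses are the difference within slide 2, from 1 CFA and 2 contralateral arrays, and lie at -0.72 for Actb and -1.65 for Ywhaz, on the other side of 0 from the differences over all arrays.

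Promoters of 7 of the 10 genes were matched by symbol in a RefSeq table of the GRCr8 assembly, each with 250 bases before and 50 after the start. In all 7 the content of G and C (53.0% in B2m to 66.0% in Ppia) and the number of CpG (11 in Gusb to 36 in Ppia) were above the medians of 33469 promoters (51.7% and 7). The promoters of B2m and Hprt1 are shown because this pair served as the reference for the ganglion and they differ in the letters found. Searched on both strands and marked by capitals were the TATA box TATAAA, the GC box GGGCGG, the CCAAT box, and an interferon element made of GAAA, any 2 bases and again GAAA. In B2m these are, in order, the letters of the TATA box on the minus strand, the interferon element and the CCAAT box on the minus strand. A stretch tatataag nearer the start differs from TATAAA and is not marked. In Hprt1 they are 5 GC boxes.
B2m, chr3:129549080-129549379, plus strand: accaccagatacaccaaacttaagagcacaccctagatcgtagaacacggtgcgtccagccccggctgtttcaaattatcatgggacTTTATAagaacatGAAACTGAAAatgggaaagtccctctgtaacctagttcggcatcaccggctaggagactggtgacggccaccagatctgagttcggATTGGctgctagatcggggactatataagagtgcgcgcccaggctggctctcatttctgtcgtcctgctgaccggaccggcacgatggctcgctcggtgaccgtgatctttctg
Hprt1, chrX:137655494-137655793, plus strand: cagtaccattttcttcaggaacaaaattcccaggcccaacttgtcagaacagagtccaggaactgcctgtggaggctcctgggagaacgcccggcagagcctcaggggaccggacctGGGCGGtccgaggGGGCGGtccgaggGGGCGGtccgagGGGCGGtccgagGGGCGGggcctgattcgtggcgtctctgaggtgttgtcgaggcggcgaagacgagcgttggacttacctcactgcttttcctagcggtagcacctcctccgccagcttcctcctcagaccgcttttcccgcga
The interferon element occurs in 3.92% of all promoters of this length, the TATA box in 14.2%, the CCAAT box in 37.5% and the GC box in 33.1%. Such matches describe the letters in the window and show no binding.

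As a pair, B2m and Hprt1 differed little between the sides. The mean of their log2 signals, which is the log2 of the geometric mean of the signals and not the study's mean of cycles, was 15.58 ± 0.16 (SD, n = 6) on the CFA and 15.54 ± 0.11 (SD, n = 5) on the contralateral side. The difference was 0.04, a 1.03-fold level and less than the SD within either group. It was 0.01 in the unnormalised signal and 0.04 in the values normalised by the authors. Over single arrays the mean went from 15.31 (CFA, rat 1) to 15.75 (CFA, rat 5), a 1.36-fold range after quantile normalisation, and the range was 1.76-fold before it. Leaving out 1 array moved the difference between -0.01 and 0.09, and within slide 2 it was -0.27. The mean of all 10 genes differed by 0.12, with Actb and Ywhaz among them.

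The ratio within the pair cancels any factor common to an array, but quantile normalisation can still change it. In the quantile-normalised signal B2m over Hprt1 was 0.90, 1.16, 1.11, 1.28 and 1.16 on the contralateral arrays (log2 of the signal ratio, rats 1, 2, 3, 5 and 6). On the CFA arrays it went from 0.92 (rat 8) to 1.74 (rat 2). The CFA arrays of slide 4 (rats 2 and 3) had the highest ratios of all arrays, the others overlapped with the contralateral ones. The difference between the sides was 0.17, with a 1.79-fold range over the arrays, and in the unnormalised signal it was 0.16, with a 2.12-fold range (exact permutation p = 0.452).

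**Figure D4:**
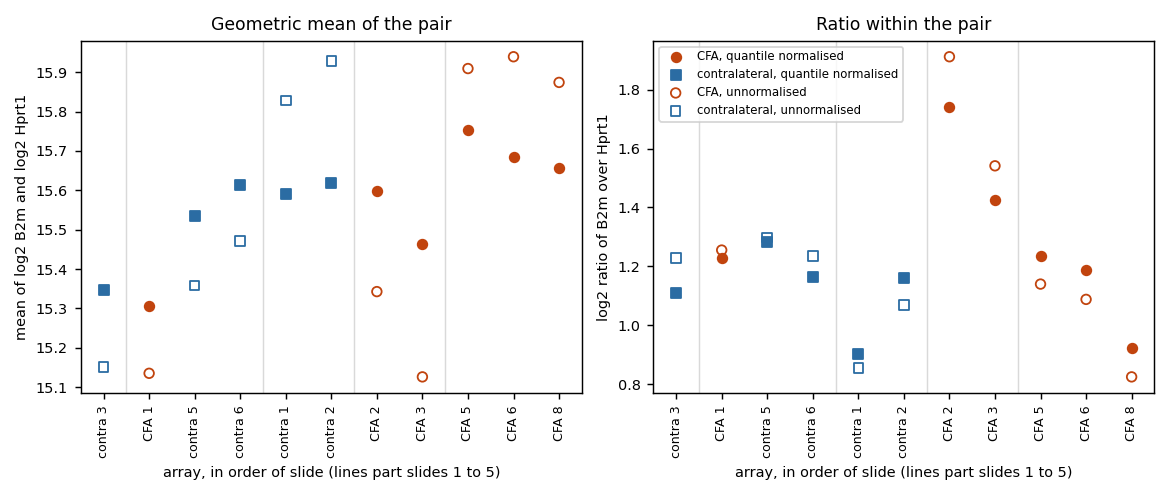
Mean of the log2 signals of B2m and Hprt1 (left) and their log2 ratio (right) on each array in order of slide (x axis; circles CFA, squares contralateral, filled quantile normalised, open unnormalised). The quantile-normalised mean stays between 15.31 and 15.75, while the unnormalised mean goes from 15.13 to 15.94 and is highest on slides 3 and 5.

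All 45 ratios between pairs of the 10 genes were also formed. A ratio of 2 genes on 1 array cancels a factor common to both, but not brightness that the genes follow unequally. Unnormalised signal correlated with array brightness (75th percentile) at r = -0.66 for Ppia and 0.93 to 0.96 for Tbp, Sdha and Hprt1. The part of brightness in the SDs below was not tested. In the unnormalised signal the most constant ratios over the 11 arrays were Tbp to Sdha (SD 0.11), Hprt1 to Sdha (SD 0.13) and Hprt1 to Tbp (SD 0.13). Their differences between the sides were 0.01, -0.00 and -0.01. By the mean SD of its ratios to the other 9 genes, each gene can be ordered from Tbp (0.365), B2m (0.367), Sdha (0.368) and Pgk1 (0.374) over Hprt1 (0.401), Gapdh (0.422) and Gusb (0.429) to Ppia (0.545), Actb (0.649) and Ywhaz (0.813). The values of Tbp, B2m, Sdha and Pgk1 lie too close together for an order among them, and after quantile normalisation Sdha (0.301) and Pgk1 (0.302) came before B2m (0.325) and Hprt1 (0.327), while Ppia had 0.342. Actb and Ywhaz were last on both scales, and their ratio to each other had an SD of 0.41, smaller than that of either to any of the other 8 genes.

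Of the genes that the study detected for its qPCR, in the unnormalised signal B2m to Gapdh had the most constant ratio (SD 0.21), followed by B2m to Hprt1 (SD 0.30), Gapdh to Ppia (SD 0.36), Ppia to B2m (SD 0.38), Gapdh to Hprt1 (SD 0.39) and Ppia to Hprt1 (SD 0.56). After quantile normalisation this order turned for Ppia to Hprt1, which then had the lowest SD (0.20), followed by B2m to Gapdh (0.21) and B2m to Hprt1 (0.23). Among these, the ratio of Gapdh to Ppia differed most between the sides, at 0.35 on the log2 scale in the unnormalised signal (exact permutation p = 0.106, as all here not adjusted for the 45 ratios) and at 0.37 after quantile normalisation (exact permutation p = 0.0195). An unadjusted permutation p of 0.05 was reached by 0 of the 45 ratios in the unnormalised signal and by 4 after quantile normalisation. The other 3 were Ppia to Pgk1 (-0.24, exact permutation p = 0.00433), Ppia to B2m (-0.31, exact permutation p = 0.0390) and Tbp to Pgk1 (-0.17, exact permutation p = 0.0411).

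**Figure D5:**
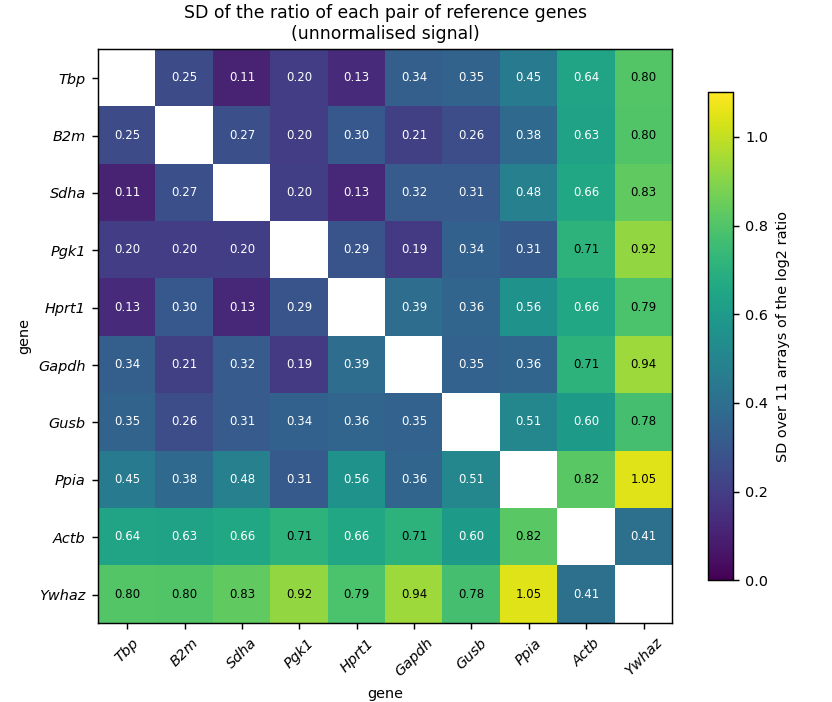
SD over the 11 arrays of the log2 ratio of each pair of reference genes in the unnormalised signal, with genes on both axes in order of their mean SD (colour scale and printed values, log2). The values run from 0.11 for Tbp and Sdha to 1.05 for Ppia and Ywhaz, and the row and column of Actb and of Ywhaz are high except where they meet (0.41).

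For 6 genes 1 of the 2 probes was spotted 10 times on the array, so the spread between spots of 1 array could be set beside the spread between arrays. The median SD between spots was 0.09 to 0.13. For Pgk1 the SD between arrays (0.10) was 1.07 times that between spots of an array. The factor was 1.38 for Hprt1, 1.70 for Sdha, 1.74 for B2m, 2.29 for Gusb and 6.17 for Actb. Of the 10 spots of Actb all 10 were higher on the CFA side, by 0.61 to 0.79. For Gusb 0 of 10 spots were higher, with differences from -0.23 to -0.02, although its other probe had a difference of 0.06. The spots of a probe share the same samples, so these counts add no replicates to the difference between the sides.

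The 2 probes of a gene followed each other closely over the arrays. The SD of their difference was 0.02 for Pgk1, 0.05 for Sdha, 0.06 for Actb and B2m, 0.08 for Hprt1 and 0.12 for Gusb. The second probe of Actb gave a difference between the sides of 0.69 and the first 0.62. The probes disagreed in sign for Gusb (0.06 and -0.13), Hprt1 (-0.05 and 0.03) and Sdha (-0.04 and 0.02), with standard errors of 0.09 to 0.17. Ywhaz had 1 probe with 1 spot, so its spread could not be checked in this way.

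Of 24 other genes in use as references, 17 were measured, and 1 passed an unadjusted p of 0.05, namely Ppib (above). Their median log2 difference was 0.05 and their median SD 0.18, close to the 0.18 of the 10 genes. The smallest SDs belonged to Atp5f1b, the beta subunit of ATP synthase (0.03), and to the ribosomal protein genes Rpl13a (0.04) and Rplp0 (0.07), with log2 differences of 0.03, -0.03 and 0.02. Only 0.251% of all probes had a lower SD than Atp5f1b, against 4.36% for Pgk1, both after quantile normalisation. These genes are bright, and the 8228 brightest probes had a median SD of 0.16, against 0.32 for all probes. The unnormalised SDs of the other references were not looked at. The beta-tubulin gene Tubb5 had an SD of 0.71 and a log2 difference of 0.74 (standard error 0.35, adjusted p = 0.471 from limma).

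To see how far the reference genes would move the whole table, each array was scaled to the pair or to all 10 genes in place of quantile normalisation. After quantile normalisation 498 probes passed the study's threshold, 57.2% of them higher on the CFA side. Scaled to B2m and Hprt1, 475 probes passed, 65.9% of them higher, and 391 were shared with the 498. Scaled to all 10 genes, 523 passed, 51.2% of them higher, and 433 were shared. With no scaling 688 passed, 74.4% of them higher. The median log2 difference of all probes was -0.04 after quantile normalisation, -0.01 scaled to the pair and -0.11 scaled to all 10 genes, and 0 probes passed an adjusted p of 0.05 under any of these scalings.

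The target genes of the qPCR were set against the pair as well, except Fosb, which was not analysed here. All 8 target genes with a probe kept their direction relative to the pair. The pair differed by 0.01 in the unnormalised signal, and scaling to it shifts every unnormalised difference by just that. No direction could thus turn, and this is no check on the pair or the targets. Gpr39, a zinc-sensing receptor, had a log2 difference of 1.59 after quantile normalisation and of 1.74 scaled to B2m and Hprt1. For Kiss1r, the kisspeptin receptor, the values were -1.41 and -1.31, for Neurod2, a neuronal transcription factor, -3.24 and -3.36, and for Lkaaear1 1.97 and 2.06. Kiss1 had -0.86 and -0.77, but only 2 of 6 CFA and 3 of 5 contralateral signals stood well above background. For Neurod2 this was so in 1 of 6 CFA and 5 of 5 contralateral arrays, so the size of its difference is uncertain. Calca, the precursor of CGRP, had 0.26 and 0.17, Aif1 -0.13 and -0.17, and Gfap 0.20 on both scales. Scaled to all 10 genes Calca had 0.07.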

How the data were processed

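The intensity of each spot was deposited by the authors as scanner output (Agilent Feature Extraction 11.0.1.1 per the submitters' processing notes), background-subtracted, spatially detrended and not normalised between arrays. A second file deposited by the authors gives 1 linear intensity per probe and array, which the methods describe as quantile normalised in limma, with a median of 184.67 in every column. The sources used here do not say how repeated spots were combined.

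Spots marked as outliers (1.38%) were set to missing, the log2 processed signal was quantile normalised over 42136 non-control spots, and spots of a probe were averaged. All 24684 probes were fitted with limma 3.58.1 in R 4.3.3, without trend or covariate, and single genes had a two-sided exact permutation test over all 462 splits. Tables and plots were made in Python 3.11.15 (pandas 2.3.3, numpy 2.4.6, matplotlib 3.10.9). The fit was tested on simulated data. Unnormalised values are log2 processed signals as scanned. Accessions were matched to symbols for 14294 probes through a RefSeq table. Background correction by normexp started from median signals, and a mean signal was not used here.

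The members and the gene lists were chosen with earlier results of these data known. The genes named are the 10 members, from each list up to 3 genes with the smallest p, from the other references also the 3 with the smallest SD, for B2m and Hprt1 the 3 genes most like them, and the genes of the study's qPCR. Genes named in the closing observations were chosen after their values were seen.

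Samples with the same number in their titles were taken to come from 1 animal. Once group means were subtracted, the sides correlated across probes at over 0.1 in 1 of 5 rats (r = 0.13) and at -0.08 to -0.01 in the others. No CFA array was most like the contralateral array of its own rat, but the sides of a rat lay on different slides. The methods name no pairing, so the tests were not paired. By the numbers in the titles the 11 arrays came from 6 rats, 5 of them with both sides. The unpaired tests treated the sides of a rat as independent. The p-values thus measure the spread between arrays, in which animal and slide are mixed, and the number of arrays limits the precision. Alternatives concerned scaling, background, outlier spots, floor, filter, trend, slide, scan day, rat and each array left out.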

Additional observations from a re-analysis of the deposited data

Results flagged for a closer look

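An array that stood apart from the others of its group was looked for in each group of each of the 10 genes (20 groups), and 2 were found, while chance marks about 1 in 20 groups. The CFA array of rat 8 had a Gapdh signal of 15.47, below the other CFA arrays, which lay between 15.91 and 16.05. The CFA array of rat 1, the only one on slide 2, had a Ppia signal of 17.60, above the other CFA arrays at 17.49 to 17.52.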

How the results depend on the processing

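The 10 genes were refitted under 27 alternatives. None passed an adjusted p of 0.05 in any of them. Past the study's threshold were 0 genes, or 1 (Ywhaz) with slide as a block. The count at an unadjusted p, 1 in the report, was 0 with no normalisation between arrays, with 75th percentile scaling, scaled to the pair, scaled to the 10 genes, without background correction and when scan day was the block, and 0 to 3 with 1 array left out (0 without contralateral rat 1 or 2, 2 without contralateral rat 6 or CFA rat 8, 3 without CFA rat 1). The pair of B2m and Hprt1 differed by -0.10 scaled to the 10 genes, by -0.27 within slide 2, and by -0.01 to 0.09 with 1 array left out. With normexp the 1 gene past an unadjusted p was Tbp (-0.14) in place of Ppia, and with slide as a block it was Ywhaz. Of the 10 genes 8 had an SD below the median of all probes, but 4 with normexp and 5 without background correction. With 1 array left out this count was 8 throughout.

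Signs turned as follows, and the cause was not tested. With slide as a block and within slide 2 the differences were -0.72 for Actb, -0.26 for B2m, -1.65 for Ywhaz and -0.18 for Gusb. With scan day as a block they were -0.29 for Actb, -0.18 for B2m and -1.28 for Ywhaz. Slide block, slide 2 and scan day all rest on the same CFA array, that of rat 1, and are not separate checks. With normexp and without background correction they were 0.048 and 0.048 for Hprt1, -0.076 and -0.082 for Gusb and 0.021 and 0.021 for Sdha. B2m was at -0.023 scaled to the 10 genes. Pgk1 was at -0.0051 with no normalisation, -0.078 with 75th percentile scaling, -0.012 scaled to the pair and -0.11 scaled to the 10 genes. With 1 array left out Hprt1 ranged from -0.10 to 0.0011, Gusb from -0.079 to 0.14 and Sdha from -0.085 to 0.0088, with the sign turned without CFA rat 1, contralateral rat 3 and CFA rat 2.

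With the rat as a replicate block, a paired fit of 5 rats, Ppia had -0.18 and missed an unadjusted p of 0.05, Gapdh had 0.27 and passed it, and the calls of the other 8 genes did not change.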

Other observations

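Beyond the reference genes, few bright transcripts varied as much as Actb and Ywhaz. This was looked at after their spread had been seen. Of 1082 genes well above background on every array and with a mean probe signal at or above that of the Actb probe (a limit on brightness, not on abundance), 6 (0.555%) had an SD at or above that of Actb (0.66). They were Actb, Ywhaz, the haemoglobin genes Hba-a1 (SD 0.72) and Hba-a2 (SD 0.73), Ptgds, a prostaglandin D synthase that is abundant in the meninges (SD 1.00), and the ribosomal protein gene Rpl13 (SD 0.94). Over the 11 arrays Actb and Ywhaz ran together (r = 0.88), while Ptgds (r = 0.07 with Actb, -0.03 with Ywhaz) and Rpl13 (r = 0.10 and -0.22) did not run with them. Hba-a1 (r = 0.57 and 0.51) and Hba-a2 (r = 0.51 and 0.46) lay between. The genes most like Actb were Rap1b (r = 0.96), Hist2h3c2 (r = 0.96) and Cd48 (r = 0.95), and those most like Ywhaz were Gtf2a2, Abracl (both r = 0.99) and Pcbp2 (r = 0.98). Rap1b, a small GTPase, had an SD of 0.86 and a log2 difference of 0.81 between the sides. These are the highest of 11094 correlations over 11 arrays that share slides, and are given as a description.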
